A study of Rattus norvegicus with 9 samples.

Results

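The genes described here are 10 neural adhesion molecules of the immunoglobulin superfamily, chosen by their symbols in the deposited tables, and they make up 10 of the 32883 rows: *L1cam*, *Chl1*, *Nrcam*, *Nfasc*, *Ncam1*, *Ncam2*, *Cntn1*, *Cntn4*, *Alcam* and *Vcam1*. RNA was sequenced from 9 libraries of cultured rat fibroblasts (Fb), 3 from the epineurium of the sciatic nerve (Fb-Epn), 3 from the nerve parenchyma inside it (Fb-Par) and 3 from skin (Fb-Skn). All rats were wild-type male Lewis rats of 10 weeks without any treatment. The nerves came from 2 rats and the abdominal skin from 1 other rat, and cultures were used after 1 passage. The 3 samples of a type therefore cannot be 3 animals, and the paper does not say whether they were separate cultures, so p-values measure only the spread between samples, which may be technical. Tissue, rat and body site cannot be told apart between the nerve types and Fb-Skn. Total counts ran from 10084584 to 12310506 per library, and the median library had 10983249 counts for Fb-Epn, 10904060 counts for Fb-Par and 10124043 counts for Fb-Skn.

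Adhesion molecules of this superfamily carry immunoglobulin-like domains outside the cell and bind like molecules, each other or other ligands on neighbouring cells and in the matrix. In peripheral nerve they are known from axons and Schwann cells, where they take part in axon growth, bundling of fibres and the assembly of the node of Ranvier. The L1 family spans the membrane and holds to the spectrin skeleton through ankyrins, contactins are anchored by a lipid, and VCAM-1 is best known as an integrin ligand on activated endothelium and on stromal cells.

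The comparisons asked how the RNA of these genes differed between the fibroblast types. Counts were tested with edgeR's quasi-likelihood test, and a gene was called at an adjusted p under 0.01. Of the 10 members, 7 passed the expression filter and were tested. *Ncam2*, *Cntn1* and *Cntn4* were too low. A gene at 0 in a type passes this filter only through the types where it is high, so these counts describe the members and support nothing about them as a set. In Fb-Epn against Fb-Skn, 6 of the 10 members were called, each of them higher in Fb-Epn, while 23.0% of the 13273 tested genes were called higher and 20.9% lower. Between Fb-Epn and Fb-Par, 4 members were called higher and 2 lower in Fb-Epn, against 20.2% and 18.6% of tested genes. Between Fb-Par and Fb-Skn, 4 members were called higher and 2 lower in Fb-Par, against 23.2% and 22.4% of tested genes. The comparisons share libraries, so their counts are not independent.

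With a log2 fold change past 2 in size as a further requirement, 4, 3 and 4 members were DE genes in these 3 comparisons, beside 8.44%, 6.48% and 8.54% of tested genes. The median log2 fold change of the 7 tested members was 2.85 for Fb-Epn against Fb-Skn, 1.16 for Fb-Epn against Fb-Par and 1.69 for Fb-Par against Fb-Skn. Over all tested genes the medians were -0.0028, -0.00018 and -0.012. Taking *Chl1* at its lower bound left the members' medians at 2.85 and 1.69.

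*L1cam* (ENSRNOG00000061230) lies on chromosome X of rn6 from 156909913 to 156928057 and encodes the founding member of the L1 family, an adhesion molecule of growing axons and of Schwann cells. Its level was 6.62, 6.37 and 6.55 TPM (transcripts scaled to a fixed sum, a level per length) in the Fb-Epn libraries, 12.7, 13.3 and 10.9 TPM in Fb-Par, and 0.0939, 0.143 and 0.284 TPM in Fb-Skn. Every Fb-Par library was above every Fb-Epn library, and the Fb-Skn libraries lay far below both, at 3, 4 and 8 counts. *L1cam* was 33.8-fold higher in Fb-Epn than Fb-Skn (log2 fold change 5.08, SE 0.21, adjusted p = 5.1e-11). It was 63.4-fold higher in Fb-Par than Fb-Skn (log2 fold change 5.99, SE 0.20, adjusted p = 3.5e-12). Within the nerve, Fb-Epn was below Fb-Par by a log2 fold change of -0.91 (SE 0.12, adjusted p = 1.5e-05). This call was lost with limma on log2(TPM + 0.1), at an adjusted p of 0.012, where the alternatives gave 8.3e-11 to 0.012. In bulk RNA, fewer cells of a type and less RNA per cell cannot be told apart, here and for every gene that follows.

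*Chl1* (ENSRNOG00000045771, chromosome 4, 70252366 to 70330803) encodes the close homolog of L1, which takes part in neuronal migration and axon guidance. It was measured at 7.12, 6.21 and 6.07 TPM in Fb-Epn and at 12.1, 14.0 and 14.2 TPM in Fb-Par, and no read was counted in any Fb-Skn library. The 3 types did not overlap, and their order was that of *L1cam*. Against a floor of 3 counts in each Fb-Skn library, *Chl1* was at least 35.4-fold higher in the Fb-Epn libraries (adjusted p = 4.5e-10) and at least 73.2-fold higher in Fb-Par (adjusted p = 4.4e-11). Intervals and floors here cover counting error only. Fb-Epn was below Fb-Par by a log2 fold change of -1.05 (SE 0.13, adjusted p = 1.8e-05). In these rn6 coordinates the nearest named genes to *Chl1* are the trypsin genes *Prss3*, *Try5* and *Try10*, all at 0 counts in the 9 libraries. In the RefSeq annotation of GRCr8 its nearest protein-coding genes are the contactin genes *Cntn6*, *Cntn3* and *Cntn4*, so the placement of the counted gene model differs between the builds.

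**Figure D1:**
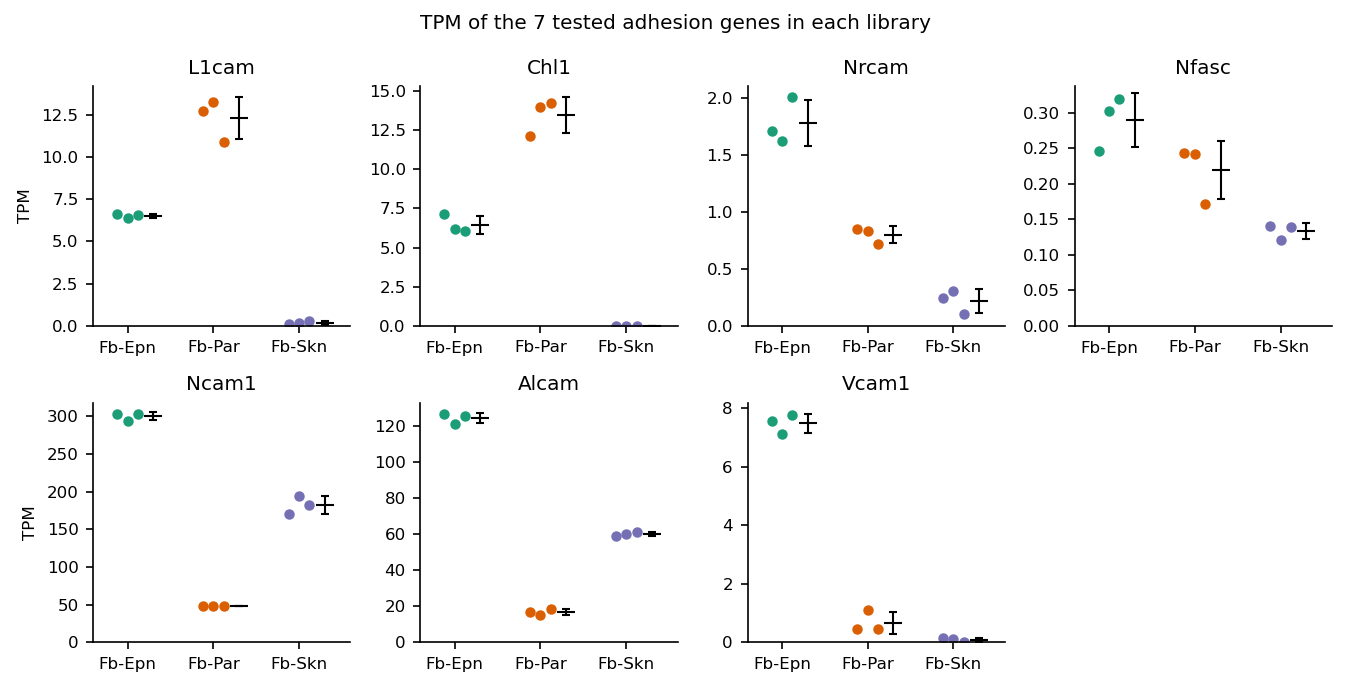
TPM of the 7 tested members on linear axes that start at 0, with 1 point per library and, to the right of each type, the mean with its SD (n = 3). *L1cam* and *Chl1* were highest in Fb-Par, at means of 12.3 and 13.5 TPM, while *Ncam1*, *Alcam* and *Vcam1* were highest in Fb-Epn, at means of 300.3, 124 and 7.48 TPM.

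Schwann cell markers, added together, had the same order of types as *L1cam* and *Chl1*. Of 11 such markers with a row in the tables, 10 were tested, 9 were called higher in Fb-Epn than Fb-Skn, 9 higher in Fb-Par than Fb-Skn, and 7 lower in Fb-Epn than Fb-Par. Their summed level was 204, 211 and 209 TPM in the Fb-Epn libraries, 276, 283 and 281 TPM in Fb-Par and 15.7, 16.5 and 11.4 TPM in Fb-Skn. The most abundant was *S100b*, at 129.6, 119 and 7.96 TPM on average across Fb-Epn, Fb-Par and then Fb-Skn. The defining markers *Sox10*, *Erbb3*, *Cdh19* and *Gfap* had 0 counts in every Fb-Skn library, as *Chl1* did. Beside these markers, 23.0% of all tested genes were called higher in Fb-Epn than Fb-Skn. The shares were 23.2% higher in Fb-Par than Fb-Skn and 18.6% lower in Fb-Epn than Fb-Par.

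The difference between Fb-Epn and Fb-Par was also of a like size in *L1cam*, *Chl1* and several of these markers. The log2 fold change of Fb-Epn against Fb-Par was -1.08 (SE 0.08, adjusted p = 3.2e-07) for *Sox10*, the transcription factor of the Schwann cell lineage, and -1.12 (SE 0.08, adjusted p = 2.0e-07) for *Erbb3*, the neuregulin receptor. *L1cam* TPM divided by *Sox10* TPM was 0.478, 0.425 and 0.444 in the Fb-Epn libraries and 0.418, 0.441 and 0.338 in the Fb-Par libraries. For *Chl1* the same ratio was 0.514, 0.414 and 0.411 in Fb-Epn and 0.400, 0.465 and 0.441 in Fb-Par. The levels of both adhesion genes separated Fb-Epn from Fb-Par, whereas their ratios to *Sox10* overlapped between them. In the preparation the medium was changed soon after seeding, which takes away cells that have not yet attached, and no sorting step is described. Cultures of this preparation were also stained for S100b and Cd31, protein markers of Schwann and endothelial cells. The paper reports labelling for both as negligible, and its images were not analysed here. The part of Schwann cells in the levels of *L1cam* and *Chl1* was not tested.

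*Nrcam* (ENSRNOG00000004067, chromosome 6, 64297888 to 64864996) encodes an L1 family member of the node of Ranvier, where it helps to gather sodium channels. It was low in all types, with 1.71, 1.62 and 2.01 TPM in Fb-Epn, 0.852, 0.830 and 0.714 TPM in Fb-Par and 0.248, 0.310 and 0.103 TPM in Fb-Skn. The types did not overlap, and unlike *L1cam* and *Chl1* the gene was highest in Fb-Epn. The log2 fold change was 2.85 (SE 0.29, adjusted p = 1.2e-06) for Fb-Epn against Fb-Skn and 1.69 (SE 0.31, adjusted p = 3.4e-04) for Fb-Par against Fb-Skn. Between the nerve types it was 1.16 (SE 0.25, adjusted p = 1.2e-03), a call that was lost with limma on log2(TPM + 0.1), at an adjusted p of 0.015, where the alternatives gave 0.00021 to 0.015. Of the gene models that overlap *Nrcam* in rn6, the one with the most reads had 8 counts at most in a library.

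*Nfasc* (ENSRNOG00000030515, chromosome 13, 49335408 to 49522415) encodes neurofascin, whose glial and neuronal forms hold the paranode and the node together. Its level was 0.247, 0.302 and 0.319 TPM in Fb-Epn, 0.243, 0.241 and 0.172 TPM in Fb-Par and 0.140, 0.120 and 0.139 TPM in Fb-Skn, from 6 to 18 counts per library. Although no library of one type crossed into another, no comparison was called. The adjusted p was 0.034 for Fb-Epn against Fb-Skn (log2 fold change 0.97, SE 0.36), 0.33 for Fb-Epn against Fb-Par (log2 fold change 0.41, SE 0.33) and 0.22 for Fb-Par against Fb-Skn (log2 fold change 0.56, SE 0.37). At a threshold of 0.05 the first of these would be called.

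*Ncam1* (ENSRNOG00000031890, chromosome 8, 53839098 to 53901358) encodes the neural cell adhesion molecule, which binds itself and fibroblast growth factor receptors and can carry polysialic acid. Its level was 303, 294 and 303 TPM in Fb-Epn, 48.3, 48.0 and 48.2 TPM in Fb-Par and 171, 194 and 182 TPM in Fb-Skn. It was the most abundant member per length in each of the 3 types, and the order of types was Fb-Epn, Fb-Skn and Fb-Par, without overlap. *Ncam1* was 6.27-fold higher in Fb-Epn than Fb-Par (log2 fold change 2.65, SE 0.04, adjusted p = 5.2e-16). The log2 fold change of Fb-Par against Fb-Skn was -2.07 (SE 0.04, adjusted p = 5.0e-15). The step between Fb-Epn and Fb-Skn was smaller, at 1.495-fold (log2 fold change 0.58, SE 0.04, adjusted p = 4.1e-09).

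The Schwann cell markers had another order of types than *Ncam1*, since Fb-Skn held 182 ± 11.6 TPM (SD, n = 3) of *Ncam1* with 0 counts of *Sox10*. *Ncam1* TPM divided by *Sox10* TPM was 21.9, 19.6 and 20.6 in the Fb-Epn libraries and 1.59, 1.598 and 1.49 in the Fb-Par libraries. A lincRNA, AABR07070131.1 (ENSRNOG00000053537), lies 478 bases from *Ncam1* on the opposite strand, at 53831526 to 53838620 of chromosome 8, and was singled out after its values were seen. It had 480, 510 and 458 counts in Fb-Epn, 71, 49 and 56 counts in Fb-Par and 319, 290 and 277 counts in Fb-Skn, the same order of types as *Ncam1*. The libraries were made with a directional kit, which keeps the strand of the RNA, but whether the counting used strand is not given in the sources used here, and the part of reads that run past the end of *Ncam1* was not tested.

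The paralog *Ncam2* (ENSRNOG00000002126, chromosome 11, 20471764 to 20705063), known from olfactory axons, had 0 or 1 count in every library and none in Fb-Skn. *Cntn1* (ENSRNOG00000004438, chromosome 7, 133400485 to 133586677) encodes contactin-1, which pairs with neurofascin at the paranode. It had 4, 2 and 7 counts in Fb-Epn, 3, 4 and 1 counts in Fb-Par and 13, 3 and 1 counts in Fb-Skn, so its types overlapped and 1 Fb-Skn library held most of the reads of that type. *Cntn4* (ENSRNOG00000005652, chromosome 4, 138269142 to 138787525) had 1 count in 1 Fb-Skn library and 0 in the other 8. These 3 members did not pass the filter. In the fit with no filter they were called in no comparison (adjusted p from 0.28 to 1), so differences between types were not detectable at this depth.

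*Alcam* (ENSRNOG00000001989, chromosome 11, 50781127 to 50985083) encodes the activated leukocyte cell adhesion molecule, which binds itself and CD6 and guides motor and retinal axons. Its level was 127, 121 and 125 TPM in Fb-Epn, 16.8, 15.4 and 18.5 TPM in Fb-Par and 59.1, 60.2 and 61.0 TPM in Fb-Skn. As for *Ncam1*, Fb-Epn was highest, Fb-Skn came next and Fb-Par was lowest, with no overlap. *Alcam* was 7.40-fold higher in Fb-Epn than Fb-Par (log2 fold change 2.89, SE 0.06, adjusted p = 1.4e-14). It was 1.88-fold higher in Fb-Epn than Fb-Skn (log2 fold change 0.91, SE 0.05, adjusted p = 1.4e-09). The log2 fold change of Fb-Par against Fb-Skn was -1.98 (SE 0.06, adjusted p = 1.1e-12), just short of the size of 2 that defined DE genes.

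**Figure D2:**
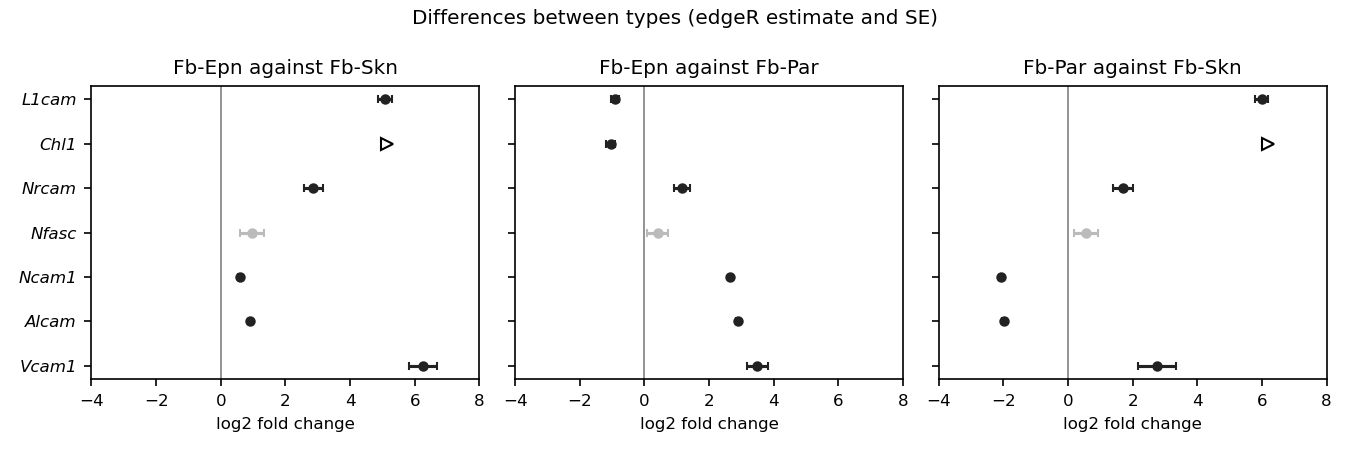
Log2 fold changes of the 7 tested members in the 3 comparisons, with bars of 1 SE from edgeR. Black points had an adjusted p under 0.01, grey points did not, and open triangles are lower bounds for *Chl1*, which had 0 counts in Fb-Skn. *Ncam1* and *Alcam* were below 0 in Fb-Par against Fb-Skn, at -2.07 and -1.98.

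*Vcam1* (ENSRNOG00000014333, chromosome 2, 219071193 to 219097619) encodes the vascular cell adhesion molecule, which binds integrins made with the alpha chain of *Itga4* and is induced by inflammatory cytokines through NF-κB. Its level was 7.55, 7.12 and 7.76 TPM in Fb-Epn, 0.455, 1.10 and 0.450 TPM in Fb-Par and 0.137, 0.105 and 0 TPM in Fb-Skn. The gene was high in the Fb-Epn libraries, with 152 to 162 counts, and low in the rest, with 10, 21 and 9 counts in Fb-Par and 3, 2 and 0 counts in Fb-Skn. It was 11.3-fold higher in Fb-Epn than Fb-Par (log2 fold change 3.50, SE 0.31, adjusted p = 2.7e-07). From the summed counts, the ratio of Fb-Epn to Fb-Skn was 81.4, with a 95% exact counting interval of 34.6 to 252 (adjusted p = 1.5e-08). The ratio of Fb-Par to Fb-Skn was 7.10, with an interval of 2.80 to 23.1 (adjusted p = 1.1e-03). The fitted folds depended on single Fb-Skn libraries. The log2 fold change against Fb-Skn was 6.26 for Fb-Epn and 2.76 for Fb-Par, which became 6.89 and 3.39 without the first Fb-Skn library and 5.73 and 2.23 without the third.

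Macrophage and leukocyte markers had the same order of types as *Vcam1*. All 8 were tested, and all 8 were called higher in Fb-Epn than Fb-Skn, higher in Fb-Epn than Fb-Par and higher in Fb-Par than Fb-Skn. Their summed level was 1247, 1213 and 1275 TPM in the Fb-Epn libraries, 265, 257 and 264 TPM in Fb-Par and 76.5, 81.5 and 79.1 TPM in Fb-Skn. The most abundant was *Lyz2*, at 957, 178 and 60.6 TPM on average across Fb-Epn, Fb-Par and then Fb-Skn, and none was at 0 in all libraries of a type. *Vcam1* TPM divided by *Cd68* TPM was 0.0514, 0.0470 and 0.0481 in the Fb-Epn libraries, 0.0156, 0.0445 and 0.0152 in the Fb-Par libraries and 0.0160, 0.0124 and 0 in the Fb-Skn libraries. Beside the 8 markers, 23.0% of all tested genes were called higher in Fb-Epn than Fb-Skn. The shares were 20.2% higher in Fb-Epn than Fb-Par and 23.2% higher in Fb-Par than Fb-Skn.

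Markers of endothelial cells, in which *Vcam1* is best known, were also higher in Fb-Epn than Fb-Skn, and fewer of them in Fb-Par. Of 7 with a row, 4 were tested, 4 were called higher in Fb-Epn than Fb-Skn, 2 higher in Fb-Par than Fb-Skn and 2 higher in Fb-Epn than Fb-Par. The shares of all tested genes called in these directions were 23.0%, 23.2% and 20.2%. The list summed to 15.6, 16.3 and 15.9 TPM in Fb-Epn, 11.4, 11.8 and 10.4 TPM in Fb-Par and 1.31, 1.604 and 1.00 TPM in Fb-Skn. *Tek* was the most abundant, with 10.2 TPM of the Fb-Par sum on average, and *Cdh5*, *Cldn5* and *Emcn* were at 0 counts in Fb-Skn. In Fb-Par against Fb-Skn, *Tek* and *Tie1* were the 2 called, *Cdh5* and *Vwf* were not (adjusted p 0.013 and 0.35), *Kdr* had 5 counts and *Cldn5* 0 in each of the 2 types. For the endothelial protein Cd31, the paper reports negligible labelling in cultures of this preparation. The part of macrophages and of endothelial cells in the level of *Vcam1* was not tested.

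**Figure D3:**
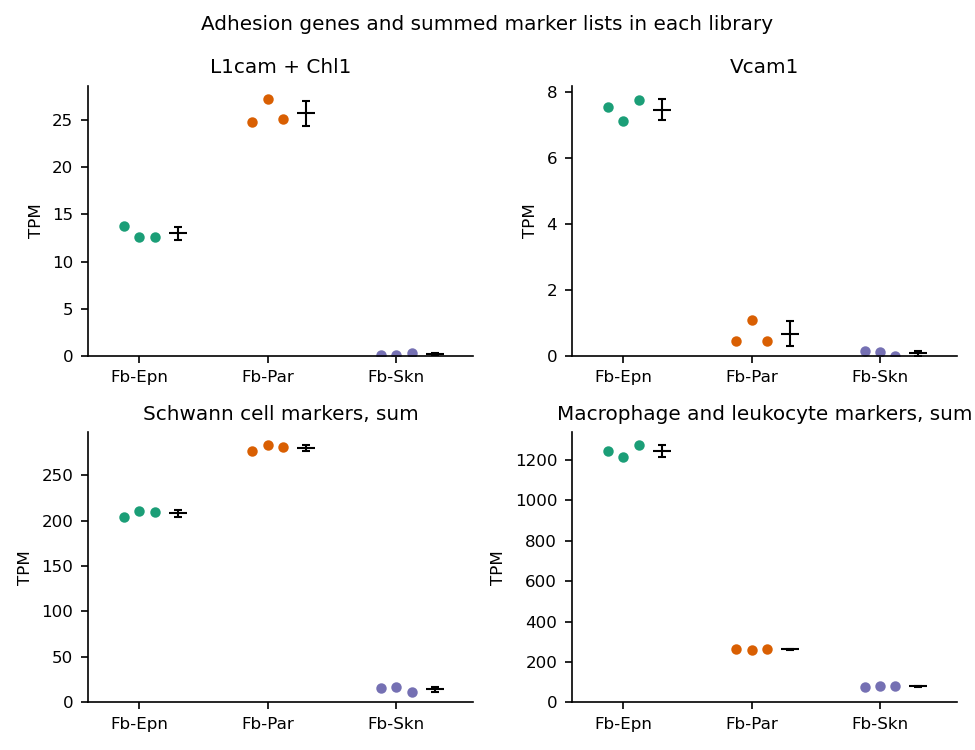
TPM per library of *L1cam* and *Chl1* added together and of *Vcam1* (top), and the summed TPM of 11 Schwann cell markers and of 8 macrophage and leukocyte markers (bottom), with the mean and SD of each type (n = 3). The axes start at 0. *L1cam* plus *Chl1* and the Schwann cell markers were highest in Fb-Par, at means of 25.7 and 280.1 TPM, while *Vcam1* and the macrophage and leukocyte markers were highest in Fb-Epn.

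RefSeq promoter sequences of the GRCr8 build, 250 bases before to 50 after the start, were given for 7 of the 10 members, all but *L1cam*, *Ncam1* and *Nrcam*. They were searched on both strands of the 250 bases for GGGNNTNCC, a pattern of NF-κB type sites, and for TATAAA. The promoter of *Vcam1* is shown because it holds the first pattern at 2 places that do not overlap. The 150 bases before its start, at chr2:206742784-206742933 on the minus strand, are printed 5′ to 3′ with the matches in capitals.
*Vcam1*: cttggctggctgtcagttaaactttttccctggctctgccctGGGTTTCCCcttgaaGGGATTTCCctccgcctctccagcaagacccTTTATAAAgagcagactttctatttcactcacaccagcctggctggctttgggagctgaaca
The 2 matches to GGGNNTNCC begin 108 and 93 bases before the start. The last run of capitals holds TATAAA on both strands, with matches that begin 62 and 60 bases before the start and overlap. GGGNNTNCC was present at least once in 13.3% and at more than 1 position, overlaps included, in 2.07% of 33469 promoters of the same length, and TATAAA at least once in 12.9%. Of the promoters of *Chl1*, *Alcam*, *Ncam2*, *Cntn1* and *Cntn4*, none held either pattern in this window, while 1 of 2 *Nfasc* promoters held overlapping GGGNNTNCC matches. These matches describe letters only, and binding was not tested.

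The make-up of the family differed between the types. The members summed to 447 ± 9.17 TPM (SD, n = 3) in Fb-Epn, 92.7 ± 0.916 TPM in Fb-Par and 243 ± 11.95 TPM in Fb-Skn. *Ncam1* made up 67.1 ± 0.218% of this sum for Fb-Epn, 52.0 ± 0.605% for Fb-Par and 74.9 ± 1.08% for Fb-Skn, and *Alcam* made up 27.8 ± 0.124%, 18.2 ± 1.63% and 24.7 ± 1.00%. *L1cam* and *Chl1* together made up 2.90 ± 0.120% of the sum for Fb-Epn, 27.8 ± 1.30% for Fb-Par and 0.0712 ± 0.0402% for Fb-Skn. Fb-Par was thus lowest in the 2 abundant members and highest in the pair of the L1 family. The ratio of *Ncam1* to *Alcam* TPM stayed between 2.39 and 3.22 over the 9 libraries, while *Ncam1* itself ranged from 48.0 to 303 TPM.

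The genes with the most similar profiles were sought among 11221 tested genes, as the smallest root mean square difference of centred log2(TPM + 1) over the 9 libraries. This scale shrinks the folds of low genes, so a near gene of higher level can share the order of types with smaller folds. For *L1cam* the nearest were *Scara5* (0.12) and *Nes* (0.13), which encodes the intermediate filament nestin. *Scara5* was such a gene, at 310, 618 and 50.4 TPM on average across Fb-Epn, Fb-Par and then Fb-Skn. For *Chl1* they were *Mbp* (0.10), the gene of myelin basic protein, and *Erbb3* (0.11), both on the Schwann cell list. *Mbp* had 6.17 ± 0.896 TPM (SD, n = 3) in Fb-Epn, 14.4 ± 2.37 TPM in Fb-Par and 0.0595 ± 0.0044 TPM in Fb-Skn, beside 6.47 ± 0.574, 13.5 ± 1.14 and 0 for *Chl1*.

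For *Ncam1* the nearest gene was *Tnc* (0.08), which encodes the matrix protein tenascin-C and is also on the partner list, followed by *Igfbp3* (0.13). *Tnc* was at 1469 ± 19.4 TPM (SD, n = 3) in Fb-Epn, 260.3 ± 9.91 TPM in Fb-Par and 1014 ± 36.5 TPM in Fb-Skn, the order of *Ncam1*. For *Alcam* they were *Cdon* (0.12), itself an immunoglobulin superfamily receptor, and *Cdca3* (0.14). *Vcam1* was nearest to *PCOLCE2* (0.17) and *Tbxas1* (0.17), and *Nrcam* to *Kctd11* (0.08) and *Adamtsl4* (0.11). The levels of *PCOLCE2* were 42.1, 8.65 and 4.08 TPM and those of *Kctd11* 34.7, 22.0 and 15.2 TPM, with smaller folds against Fb-Skn than *Vcam1* and *Nrcam*. *Nfasc* lay nearest to *Psmd3* (0.03) and *Trit1* (0.03), genes with nearly flat profiles, because a gene of under 1 TPM moves little on this scale.

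The deposited tables list annotation terms beside each gene. The term axon stood beside 8 of the 10 members, all but *Chl1* and *Vcam1*, and beside 2.48% of the 13273 tested genes. Axon guidance stood beside 7 members and 0.964% of tested genes, and cell adhesion beside 8 members, all but *L1cam* and *Chl1*, and 1.48% of tested genes. The members called in these comparisons thus included genes with and without each term.

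Other adhesion genes of the superfamily were taken from a list of 41 symbols, of which 40 had a row and 29 were tested. Between Fb-Epn and Fb-Skn, 15 were called higher and 9 lower in Fb-Epn, with a median log2 fold change of 0.42. Between Fb-Epn and Fb-Par, 9 were called higher and 11 lower in Fb-Epn, with a median of -0.41, and between Fb-Par and Fb-Skn 18 were higher and 5 lower in Fb-Par, with a median of 0.76. Over all tested genes, 23.0% were called higher and 20.9% lower in Fb-Epn against Fb-Skn. The shares were 20.2% and 18.6% for Fb-Epn against Fb-Par, and 23.2% and 22.4% for Fb-Par against Fb-Skn. The contactin *Cntn2*, which binds L1 family members, followed the order of *L1cam* and *Chl1*, at 4.21 ± 0.414 TPM (SD, n = 3) in Fb-Epn, 21.5 ± 2.29 TPM in Fb-Par and 0.171 ± 0.0830 TPM in Fb-Skn. It was 5.07-fold higher in Fb-Par than Fb-Epn, where the log2 fold change of Fb-Epn against Fb-Par was -2.34 (SE 0.12, adjusted p = 5.1e-10), 21.6-fold higher in Fb-Epn than Fb-Skn and 109.8-fold higher in Fb-Par than Fb-Skn.

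All 4 genes of the SynCAM family were called higher in both nerve types than in Fb-Skn. *Cadm4*, the SynCAM of myelinating glia, was more abundant per length than any of the 10 members in both nerve types, at 625 ± 22.3 TPM (SD, n = 3) in Fb-Epn, 528 ± 29.6 TPM in Fb-Par and 46.6 ± 3.91 TPM in Fb-Skn. *Cadm2*, at 0 counts in Fb-Skn, was at least 4.34-fold higher in Fb-Epn and at least 7.93-fold higher in Fb-Par. The junctional molecule *F11r* was 13.7-fold higher in Fb-Par than Fb-Skn.

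Some genes of other families ran the other way or apart from the nerve and skin divide. The IgLONs *Negr1*, *Lsamp* and *Ntm* were lower in Fb-Epn than Fb-Skn, with log2 fold changes of -2.53, -1.52 and -1.48, and *Lsamp* was 10.6-fold higher in Fb-Par than Fb-Epn. *Ntm* was also lower in Fb-Par than Fb-Skn (log2 fold change -1.54), whereas *Lsamp* was higher in Fb-Par (log2 fold change 1.89, adjusted p = 7.2e-06). The other tested IgLON, *Iglon5*, was not called in any comparison. *Emb*, the gene of embigin, had the highest level in Fb-Epn, as *Alcam* and *Vcam1* did, and was 7.90-fold higher there than in Fb-Par, with *Mpzl2* at 3.45-fold and *Igsf9* at 3.36-fold. *Emb* and *Igsf9* were lower in Fb-Par than Fb-Skn, with log2 fold changes of -0.67 and -1.80. *Mcam* was lower in Fb-Epn than Fb-Par, with a log2 fold change of -1.92.

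Partners of the members were taken from a list of 40 symbols of receptors, ligands, membrane skeleton and processing enzymes, of which 38 had a row and 32 were tested. Between Fb-Epn and Fb-Skn, 17 were called higher and 8 lower in Fb-Epn, with a median log2 fold change of 0.28, or 0.22 with *Ncan*, at or under 3 counts in each of those libraries, set at that floor. Between Fb-Epn and Fb-Par, 6 were called higher and 17 lower in Fb-Epn, with a median of -0.42, and between Fb-Par and Fb-Skn 19 were higher and 5 lower in Fb-Par, with a median of 0.37. Over all tested genes, 23.0% were called higher and 20.9% lower in Fb-Epn against Fb-Skn. The shares were 20.2% and 18.6% for Fb-Epn against Fb-Par, and 23.2% and 22.4% for Fb-Par against Fb-Skn.

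Partners of the L1 family included *Ank2*, an ankyrin, which was 5.44-fold higher in Fb-Par than Fb-Skn, and *Nrp1*, a semaphorin receptor that forms a complex with L1, which was 5.85-fold higher. *Ank3*, the other tested ankyrin of the list, was 1.52-fold higher in Fb-Par than Fb-Skn. In Fb-Epn against Fb-Skn, *Ank3* was lower (log2 fold change -0.80, adjusted p = 1.0e-05) and *Ank2* higher (1.03, adjusted p = 4.3e-08). *Ncan*, the gene of the L1 and NCAM ligand neurocan, had 26, 18 and 24 counts in Fb-Par, 3, 2 and 3 in Fb-Epn and 0 in Fb-Skn. It was at least 6.66-fold higher in Fb-Par than Fb-Skn, and the ratio of Fb-Par to Fb-Epn was 8.75, with a 95% exact counting interval of 4.20 to 21.1. The contactin and NCAM ligand *Ptprz1* was lower in Fb-Epn than Fb-Skn and Fb-Par, with log2 fold changes of -1.82 and -1.63.

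Partners of *Ncam1* and *Vcam1* did not share one order. *Fgfr2* was lower in Fb-Epn, where *Ncam1* was highest, with log2 fold changes of -2.32 against Fb-Skn and -1.70 against Fb-Par, and lower in Fb-Par than Fb-Skn (-0.62). The more abundant *Fgfr1* was at 251, 288 and 154 TPM on average across Fb-Epn, Fb-Par and then Fb-Skn. *Fgfr1* was higher in Fb-Epn than Fb-Skn (log2 fold change 0.57, adjusted p = 1.5e-08) and lower in Fb-Epn than Fb-Par (-0.19, adjusted p = 9.8e-04). *Tnc* was 5.68-fold higher in Fb-Epn than Fb-Par, and the log2 fold change of Fb-Par against Fb-Skn was -2.11. The polysialyltransferases *St8sia2* and *St8sia4* did not pass the filter, at means of up to 1.70 and 1.11 TPM. *Itga4*, whose product is part of the receptors of VCAM-1, was lowest in Fb-Epn, where *Vcam1* was highest, with log2 fold changes of -2.004 for Fb-Epn against Fb-Skn and -0.89 for Fb-Par against Fb-Skn. The integrin gene *Itgb1* was at 1637, 1654 and 1787 TPM on average across Fb-Epn, Fb-Par and then Fb-Skn. *Itgb1* was not called between the nerve types (adjusted p = 0.87) and was lower in Fb-Epn than Fb-Skn (log2 fold change -0.27, adjusted p = 9.5e-08). *Itgb7*, which pairs with the alpha chain of *Itga4* in leukocytes, was 6.001-fold higher in Fb-Epn than Fb-Par, from 64 and 10 summed counts. Its ratio of Fb-Epn to Fb-Skn was 13.8, with an interval of 5.13 to 52.2. The protease *Adam8*, also highest in Fb-Epn, was 13.1-fold higher there than in Fb-Par and 6.95-fold higher than in Fb-Skn.

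The label of the cells was checked against markers of other cell types. Over all tested genes, 23.0% were called higher and 20.9% lower in Fb-Epn against Fb-Skn. The shares were 20.2% and 18.6% for Fb-Epn against Fb-Par, and 23.2% and 22.4% for Fb-Par against Fb-Skn. All 6 fibroblast markers with a row were tested and present in every library, and they summed to means of 31098, 26193 and 30244 TPM over Fb-Epn, Fb-Par and finally Fb-Skn, set mostly by *Col1a1* and *Col3a1*. All 6 were called in every comparison, 3 higher and 3 lower in Fb-Epn against Fb-Skn, 3 higher and 3 lower in Fb-Epn against Fb-Par, and 4 higher and 2 lower in Fb-Par against Fb-Skn. The 1 DE gene among them was *Thy1*, at 710, 1006 and 3095 TPM, with a log2 fold change of -2.26 for Fb-Epn against Fb-Skn. The 6 mural cell markers, led by *Cspg4*, summed to 23.1, 163 and 28.1 TPM, of which *Cspg4* held 8.48, 73.1 and 26.4 TPM, and *Rgs5* and *Kcnj8* had 0 counts in Fb-Skn. All 6 were tested, of which 5 were called higher and 1 lower in Fb-Epn against Fb-Skn, 1 higher and 3 lower in Fb-Epn against Fb-Par, and 5 higher in Fb-Par against Fb-Skn. The part of mural cells was not tested. The 5 perineurial markers, led by *Slc2a1*, summed to 212, 91.2 and 119.9 TPM. This sum had the order of types of *Ncam1* and *Alcam*, set mostly by *Slc2a1* at 144.7, 34.9 and 69.0 TPM. *Itgb4* shared that order. *Tjp1* was lowest in Fb-Skn, at 54.0, 47.2 and 39.7 TPM, while *Cldn1* and *Krt19* were highest in Fb-Par. Of 3 that were tested, 2 were called higher in Fb-Epn against Fb-Skn, 3 higher in Fb-Epn against Fb-Par and 2 lower in Fb-Par against Fb-Skn. The part of perineurial cells in the levels of *Ncam1* and *Alcam* was not tested. *Cldn1*, the defining tight junction gene of that list, was at 0 in Fb-Skn and at no more than 0.32 TPM on average elsewhere.

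Markers of neurons were low and did not share one order of types. The 6 neuronal markers, led by *Nefl*, summed to 2.93, 2.098 and 0.444 TPM over Fb-Epn, Fb-Par and finally Fb-Skn. Of 2 that were tested, 2 were called higher in Fb-Epn against Fb-Skn, 1 higher in Fb-Epn against Fb-Par and 1 higher in Fb-Par against Fb-Skn. *Isl1*, singled out after its values were seen, had 24, 28 and 18 counts in Fb-Epn, 3, 0 and 1 counts in Fb-Par and none in Fb-Skn. Its level in Fb-Epn was at least 6.66-fold that of Fb-Skn. The 4 markers that were not tested had 0 to 2 counts per library, and *Rbfox3* had 1, 1 and 2 counts in Fb-Skn, 1 in 1 Fb-Par library and none in Fb-Epn. The part of neurons in the levels of the members was not tested. The 4 keratinocyte markers, led by *Krt10*, summed to 2.32, 3.56 and 3.66 TPM, with *Krt1* at 0 in every library and no gene called. *Krt14*, which did not pass the filter, had 17, 9 and 10 counts in Fb-Skn, 1 in 1 Fb-Par library and none in Fb-Epn. Its ratio of Fb-Skn to Fb-Par was 40.6, with an interval of 6.83 to 1646, and against Fb-Epn it was at least 4.57-fold. The 3 melanocyte markers, led by *Pmel*, summed to 2.85, 3.00 and 2.15 TPM, with *Tyr* at 0 in every library and no gene called. *Mlana*, also under the filter, had 6, 4 and 4 counts in Fb-Skn, 0, 1 and 1 counts in Fb-Epn and 2, 1 and 0 counts in Fb-Par. Its ratio was 8.12 against Fb-Epn, with an interval of 1.86 to 73.6, and 5.26 against Fb-Par, with an interval of 1.47 to 28.5. Both genes were singled out after their values were seen.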

How the data were processed

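Libraries were poly(A)-selected and made with a directional kit, and paired reads of 150 bp were trimmed with Trimmomatic 0.38 and aligned to rn6 with HISAT2 2.1.0, per the submitters' notes, which also name featureCounts 1.6.3. The annotation release and strand setting are not given in the sources used here. The authors deposited raw counts per gene and, for the same genes, TPM; their FPKM table was not used here. Counts were tested with edgeR 4.0.16 in R 4.3.3 (TMM, default filter, 1 model of 9 libraries, contrasts between types), with Benjamini-Hochberg adjusted p-values over all 13273 tested genes. The fit was first tested on simulated data. The common coefficient of variation was 8.25%. An exact permutation test of 3 against 3 samples cannot give a p under 0.10. Folds against a type at 0 used 3 counts per library and effective library sizes. Alternatives used DESeq2 1.42.0 and limma 3.58.1, other scalings, filters and library choices. Tables and figures used Python 3.11.15 with scipy 1.17.1, matplotlib 3.10.9, numpy 2.4.6 and pandas 2.3.3. Members and lists were chosen with earlier results of these data known. The named genes are the members, up to 3 called genes of the largest change per direction, comparison and list, the 2 nearest profiles of each tested member (mean of at least 5 TPM in a type), and from each marker list the most abundant gene and those at 0. Further markers and the partners *Fgfr1*, *Itgb1* and *Ank3* were named after their values were seen. A listed symbol without a row was not analysed here. Some genes of the lists are counted in the totals and are not reported here by themselves.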

Additional observations from a re-analysis of the deposited data

How the results depend on the processing

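The log2 fold changes of the 7 tested members were recomputed under 19 alternatives, which gave 382 values, with none where a member did not pass the filter. None reversed, 380 kept their side of the threshold of 0.01, and 2 lost the call, *L1cam* and *Nrcam* in Fb-Epn against Fb-Par with limma on log2(TPM + 0.1) (adjusted p 0.012 and 0.015). Requiring at least 10 counts in every library left 2 members called in each comparison, because members low in 1 type were no longer tested. The other adhesion genes called in Fb-Epn against Fb-Skn then numbered 15, and the DE members 0 in Fb-Epn against Fb-Skn and 1 in Fb-Par against Fb-Skn. With limma on log2(TPM + 1), which understates the change of low genes, 2 members were DE in Fb-Par against Fb-Skn. The counts of DE members were added as results after seeing the data. With each library left out in turn, 6 members were called in every comparison, and 4 to 5 were DE in Fb-Par against Fb-Skn.

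Libraries with the same replicate number did not deviate together (r from -0.0804 to 0.0198), and 0 of 9 libraries correlated best with its own number. With the replicate number as a block, 6 members were called in each comparison. Scaling by library size alone moved the share of called genes that were higher in Fb-Epn than Fb-Skn from 52.3% to 63.7%, and in Fb-Par than Fb-Skn from 50.8% to 61.9%. With limma on log2(TPM + 1) these shares were 69.0% and 66.9%, and with log2(TPM + 0.1) 69.3% and 67.0%, where the median log2 fold change of all genes was 0.137 and 0.136. At adjusted p under 0.05, 7 members were called in Fb-Epn against Fb-Skn, *Nfasc* among them. Counts were low for *Nfasc*, *Ncam2*, *Cntn1* and *Cntn4*, and for *Vcam1* in Fb-Skn.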
